A study of Rattus norvegicus with 18 samples.

Results

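Synaptic vesicles store transmitter in nerve endings and release it when they fuse with the membrane of the terminal. The transcripts described here encode proteins of that cycle and of the growth cone: Sv2a, Svop, Vamp2, Stx1a, Snap25, Syt1, Syn1, Syn2 and Gap43. These 9 genes were picked by name, with earlier results of these data known. Counts of them against all probe sets therefore describe the list and are no independent test of it. Every probe set whose platform annotation gives 1 of these genes as its sole gene was taken. This yielded 13 of the 15923 probe sets on the array. 8 of the 9 genes had a probe set. Syt1, the calcium sensor of fast release, is named by none of them and was not analysed here. 7 genes had a probe set above the filter on dim signals, which was a mean log2 signal over 7.459, and Stx1a lay below it. 9 of the 13 probe sets passed that filter, out of 9482 on the whole array.

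The study asked how transcripts in the rat oculomotor nucleus, a midbrain group of motor neurons for the eye muscles, and in the spinal cord differ with age. The labels name F344BN rats and give ages of 6, 18 and 30 months, with 3 arrays for each age in each tissue and thus 18 in all. No treatment or altered genotype is named, and the groups are described by age and tissue only. Each RNA sample combined tissue from 4 rats, so p-values measure the spread between pools and not between rats. The series text speaks of 4 replicates per group where the labels give 3, and the sources used here do not say whether both tissues came from the same rats.

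Release of a vesicle needs a complex of SNARE proteins, in which Vamp2 on the vesicle pairs with Stx1a and Snap25 on the terminal membrane. Synapsins tether vesicles to one another and to actin, Sv2a and Svop are related membrane proteins of the transporter superfamily, and synaptotagmins couple calcium to fusion. Gap43 lies under the membrane of growth cones and nerve endings, where protein kinase C phosphorylates it, and it is used as a marker of axon growth and sprouting.

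The deposited intensities had been brought to nearly the same trimmed mean on every array, and the median signal lay between 252 and 275. The floor to which dim signals were raised, 66.4, held 18% to 21% of the probe sets, depending on the array. The arrays matched their tissue labels in part: Th, the dopamine-synthesis enzyme of the midbrain, gave 1880 to 2890 on the oculomotor arrays and 55.4 to 138 on the cord arrays, whereas Hoxa5, a patterning gene of the cord, gave 8.3 to 108 and 750 to 1100. The oculomotor motor neuron gene Phox2a was below the filter, with 84.2 to 171 in the oculomotor nucleus and 90.4 to 172 in the cord, and the cholinergic gene Chat was lower in the oculomotor nucleus, at 96.8 to 191 against 316 to 438. On 4 arrays many probe sets deviated together from the rest of their group: oculomotor 30 months replicate 3, and cord 6 months replicate 1, 18 months replicate 3 and 30 months replicate 3. On the leading principal component after group means were removed, which held 27.1% of the variance, they scored -16.6 to -12.1 and the other 14 arrays -1.7 to 14.2. Skeletal muscle actin, Acta1, was high on 3 cord arrays, at 2007 and 3631 on 6 months replicates 1 and 2 and 1529 on 18 months replicate 2.

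Most of these transcripts were more abundant in the oculomotor nucleus than in the cord, at all 3 ages, and none passed the test between ages. Averaged over the ages, Svop was 3.02-fold, Gap43 2.5-fold, Vamp2 2.41-fold, Sv2a 2.09-fold, Syn2 1.88-fold and Syn1 1.31-fold higher in the oculomotor nucleus. Snap25 was the exception, with a log2 difference of -0.04. So 6 of the 7 members above the filter were called higher and 0 lower, by limma with Benjamini-Hochberg adjustment over 9482 probe sets at an adjusted p under 0.05. The background was large, since 23.6% of all probe sets tested were called higher in the oculomotor nucleus and 23.6% lower. The median log2 difference was 1.07 over the 7 members and 0.01 over all probe sets tested. For 5 of the 7, all 9 oculomotor arrays lay above all 9 cord arrays, as they did for 6.9% of the probe sets tested. In tissue RNA, fewer cells of a type and less RNA per cell cannot be told apart.

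**Figure D1:**
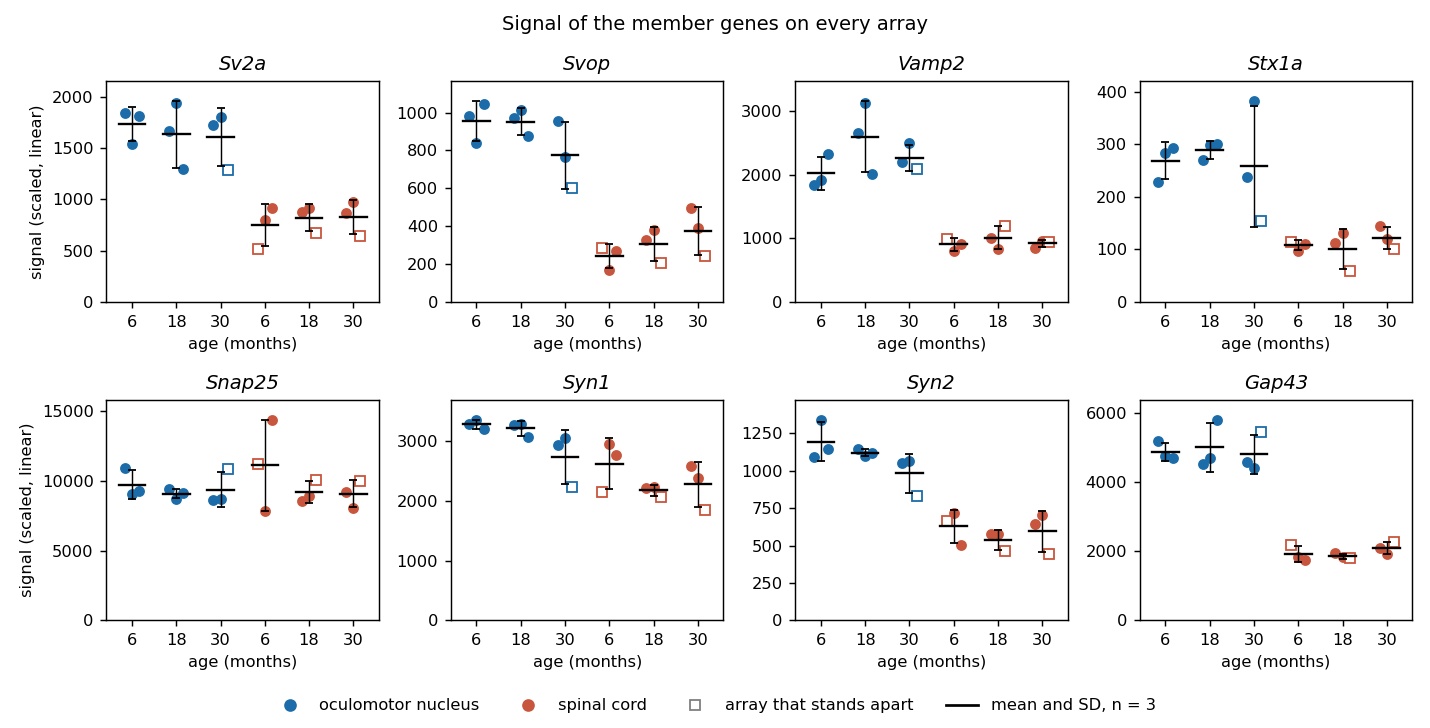
Scaled linear signal (vertical axes, starting at 0) of the representative probe set of 8 genes on each of the 18 arrays, by age in months and tissue, with black lines for the mean and SD of the 3 arrays of a group and open squares for the 4 arrays that stand apart. The oculomotor and cord points are separate for Sv2a, Svop, Vamp2, Stx1a, Syn2 and Gap43, and they overlap for Snap25 and Syn1.

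Sv2a, a glycoprotein present on nearly all synaptic vesicles and the binding site of the antiepileptic drug levetiracetam, read 1844, 1540 and 1816 in the oculomotor nucleus at 6 months, followed by 1666, 1938 and 1291 at 18 months and 1727, 1806 and 1281 at 30 months. In the cord it gave 519.8, 797.8 and 918.3, then 878.2, 916.8 and 672.6, then 865.6, 972.3 and 642.8. The lowest oculomotor value thus lay above the highest cord value. Its mean was 1657 ± 239 (SD, n = 9) in the oculomotor nucleus and 798.2 ± 153 in the cord, a log2 difference of 1.07 with a standard error of 0.12 and an adjusted p in limma of 4.31e-07. The difference was 1.25 at 6 months, 0.98 at 18 months and 0.96 at 30 months, and it passed the test at each age, the largest adjusted p being 0.00199.

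Svop, whose name stands for SV2-related protein, had the largest tissue difference of the 7 genes. Its signals in the oculomotor nucleus were 982.6, 837.1 and 1043 at 6 months, then 970.9, 1012 and 873.6 at 18 months and 957.4, 764.2 and 602.4 at 30 months. The cord arrays read 285.6, 169.9 and 270.1, then 326.5, 379.4 and 204.4, then 497.3, 388 and 241.7. Again no cord array reached the lowest oculomotor value, but the gap was narrowest at 30 months, where the oculomotor group held its lowest values and the cord group its highest. The log2 difference between the tissues was 1.60 (standard error 0.15, adjusted p in limma 3.71e-08) over the ages, and it was 2.01 at 6 months, 1.69 at 18 months and 1.08 at 30 months. The narrowing from 6 to 30 months was -0.93 on the log2 scale, with a 95% interval of -1.69 to -0.18, and had an unadjusted p of 0.0182 and an adjusted p of 0.868 in limma, so it did not pass the test over all probe sets.

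Among the SNARE genes, Vamp2, synaptobrevin 2 of the vesicle membrane, gave 1833, 1922 and 2323 at 6 months, then 2663, 3128 and 2014 at 18 months and 2202, 2494 and 2091 at 30 months in the oculomotor nucleus. The cord arrays gave 997.5, 805.4 and 911 at 6 months, then 1001, 837.8 and 1193 at 18 months and 855.8, 965.1 and 947 at 30 months. All oculomotor values were above all cord values, and the means were 2297 ± 411 and 946 ± 116 (SD, n = 9). The log2 difference was 1.27 (standard error 0.09, adjusted p in limma 5.86e-10), with 1.16, 1.36 and 1.29 at the 3 ages in turn. A second Vamp2 probe set was dim, with 59.5 to 144.8 over all arrays, and stayed below the filter. Its means were alike, at 91.59 ± 26.1 in the oculomotor nucleus and 90.31 ± 15.3 in the cord (SD, n = 9), so this probe set did not show the tissue difference. Averaged with it, the log2 difference of Vamp2 was 0.64.

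Stx1a, syntaxin 1A of the terminal membrane, was close to the filter, since the mean log2 signal of its brighter probe set was 7.41. That probe set read 228.4, 283.5 and 293.7 at 6 months, then 269.6, 298 and 301.5 at 18 months and 236.9, 382.3 and 154.2 at 30 months in the oculomotor nucleus. In the cord it read 114.8, 97.2 and 111.1, then 111.5, 131.9 and 59.1, then 143.7, 119.6 and 100.9, with 1 of the 9 arrays at the floor. These groups did not overlap either. In a fit without the filter the log2 difference was 1.29 (standard error 0.17, adjusted p in limma 5.96e-05), and the second probe set gave 1.40 with 6 of 9 cord arrays at the floor.

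Snap25, the SNARE that contributes a pair of helices to the complex, differed from its partners. It gave 10910, 9062 and 9260 at 6 months, then 9396, 8738 and 9135 at 18 months and 8631, 8684 and 10840 at 30 months in the oculomotor nucleus, and 11200, 7827 and 14370, then 8567, 8931 and 10080, then 9200, 8051 and 10010 in the cord. The tissues overlapped fully, and both the lowest and the highest value came from cord arrays at 6 months. The means were 9406 ± 872 and 9804 ± 2020 (SD, n = 9), and the log2 difference of -0.04 had a 95% interval of -0.24 to 0.15 and an adjusted p of 0.747 in limma, so differences as large as those of the other members lay outside the interval. Its signal was among the brightest: of the 29 probe sets with a mean log2 signal at or above that of Snap25, itself included, 6 were called between the tissues, which is 20.7% against 47.2% of all probe sets in either direction. Leaving out the 3 cord arrays highest in Acta1, which keeps 1 cord array at 6 months, gave a log2 difference of -0.57 at that age with an adjusted p of 0.0297 in limma. The lone array was 6 months replicate 3, the highest of all 18 for Snap25, and was assumed to vary like the other groups.

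The synapsins, phosphoproteins that hold vesicles in the reserve pool, differed by less. Syn2 gave 1094, 1342 and 1146 at 6 months, then 1147, 1099 and 1121 at 18 months and 1054, 1064 and 830 at 30 months in the oculomotor nucleus, and in the cord 662.6, 717.9 and 505.9, then 577.9, 576.2 and 461.6, then 645.5, 702.3 and 442.2. No values overlapped between the tissues, and the log2 difference was 0.91 (standard error 0.09, adjusted p in limma 1.72e-07). A second Syn2 probe set showed 0.54, with an adjusted p of 1.67e-05.

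Syn1 read 3286, 3359 and 3205 at 6 months, then 3273, 3294 and 3074 at 18 months and 2930, 3053 and 2227 at 30 months in the oculomotor nucleus. The cord arrays read 2153, 2958 and 2763, then 2209, 2240 and 2073, then 2590, 2389 and 1851, so that the tissues overlapped and 7 of 9 oculomotor arrays exceeded every cord array. The log2 difference was 0.39 over the ages (standard error 0.08, adjusted p in limma 0.000384), and the second probe set gave 0.65 with an adjusted p of 5.22e-05. Of the single ages only 18 months passed the test, with 0.56 and an adjusted p of 0.00384, while 6 months gave 0.34 with 0.0734 and 30 months 0.27 with 0.176. The other 2 ages depended on single arrays. The 6-month call was made without cord 6 months replicate 2 (log2 0.43, adjusted p 0.042), without oculomotor 30 months replicate 3 (0.34, adjusted p 0.0438) and without cord 30 months replicate 3 (0.34, adjusted p 0.0446), and the 30-month call was made without oculomotor 30 months replicate 3 (0.41, adjusted p 0.0398). In the other direction, the value fell to 0.20 at 6 months without cord 6 months replicate 1 (adjusted p 0.315) and to 0.12 at 30 months without cord 30 months replicate 3 (adjusted p 0.58).

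Gap43 was the member with the smallest p. Its oculomotor signals were 5185, 4751 and 4707 at 6 months, then 4527, 4692 and 5819 at 18 months and 4581, 4406 and 5456 at 30 months. The cord signals were 2185, 1846 and 1756, then 1946, 1836 and 1794, then 2091, 1931 and 2264. Every oculomotor array gave at least 4406 and no cord array more than 2264. The log2 difference was 1.32 with a standard error of 0.07 and an adjusted p in limma of 6.49e-12, and by age it was 1.34, 1.42 and 1.20. A second Gap43 probe set was at the floor on all 18 arrays and carries no measurement, and averaging it in gave a log2 difference of 0.66.

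Counted by age, 5 of the 7 members were called higher in the oculomotor nucleus at 6 months, where 12.7% of all probe sets were. At 18 months 6 of 7 were, against 12.3%, and at 30 months 5 of 7, against 9.7%. No member was called lower at any age, against 13.4%, 13.9% and 11.3% of all probe sets, and the difference between these counts came from Syn1.

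**Figure D2:**
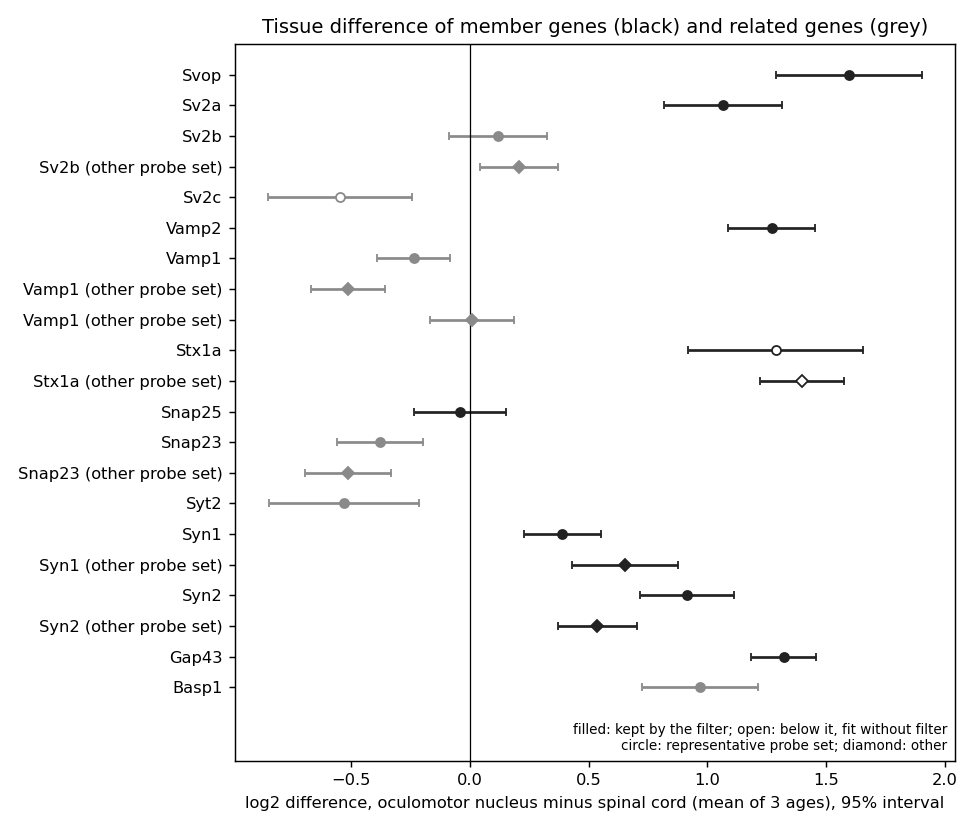
Log2 difference between oculomotor nucleus and spinal cord averaged over 3 ages (horizontal axis), with the 95% interval, for members (black) and related genes (grey), by gene and probe set. Points right of the line at 0 were higher in the oculomotor nucleus. Syn3 and the dimmest probe sets of Vamp2, Gap43, Sv2b and Basp1 are not drawn. Svop at 1.60 lies furthest right, and Sv2b, Vamp1, Snap23 and Syt2 lie near or left of 0.

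Close relatives of the members differed between the tissues in both directions. Sv2b, a second SV2 protein, differed by 0.12 on the log2 scale (adjusted p 0.337) and its other probe set by 0.21 (adjusted p 0.036), against 1.07 for Sv2a. Vamp1, a vesicle SNARE of cord and brainstem neurons, was lower in the oculomotor nucleus by its brightest probe set (-0.24, adjusted p 0.0121) and by a second (-0.51, adjusted p 1.35e-05), while its last gave 0.01 (adjusted p 0.949). Snap23, the form of Snap25 found in most cell types, was lower as well, at -0.38 (adjusted p 0.00133). Syt2, a fast calcium sensor, was 1.44-fold lower with an adjusted p of 0.00703, and Basp1, a growth cone protein that resembles Gap43 in charge and location, was 1.96-fold higher with an adjusted p of 1.24e-06, all in limma. Sv2c lay below the filter, and without it the fit gave -0.55 (adjusted p 0.00853). Syn3 was at the floor on 17 of 18 arrays.

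Whether 2 related genes differed between the tissues by unequal amounts was tested on the log2 difference between them within each array. The test was an exact 2-sided permutation of tissue labels within each age, over 8000 arrangements that allow no p below 0.00025, with Benjamini-Hochberg adjustment over the 6 pairs that could be formed of 8 listed. Only changes of such a difference between tissues can be read, since the brightness of one probe set cannot be set against that of another. The tests were chosen with earlier results of these data known, and the p-values make no allowance for that. The log2 difference of Vamp2 from Vamp1 was 1.51 higher in the oculomotor nucleus than in the cord (exact p = 0.00025, adjusted 0.00075), or 0.89 with all probe sets of a gene averaged (adjusted exact p 0.00075), and the arrays of the tissues did not overlap. That of Sv2a from Sv2b was 0.95 higher (exact p = 0.00075, adjusted 0.0015), and that of Svop from Sv2a 0.53 higher (exact p = 0.00675, adjusted 0.0101). Syn1 relative to Syn2 was lower in the oculomotor nucleus, at -0.53 on the log2 scale (exact p = 0.00025, adjusted 0.00075), but with all probe sets of a gene averaged the value was -0.20 with an adjusted p of 0.0594.

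The remaining pairs did not pass the test. Snap25 against Snap23 gave 0.34 (exact p = 0.047, adjusted 0.0564), and it passed without cord 6 months replicate 3 (0.43, adjusted exact p 0.00712), oculomotor 18 months replicate 3 (0.37, adjusted exact p 0.0411), cord 18 months replicate 2 (0.37, adjusted exact p 0.0447) or oculomotor 30 months replicate 2 (0.38, adjusted exact p 0.049). Gap43 against Basp1 gave 0.35 (exact p = 0.0648, adjusted 0.0648), and it passed without cord 6 months replicate 1 (0.45, adjusted exact p 0.0222), cord 30 months replicate 3 (0.43, adjusted exact p 0.033), oculomotor 18 months replicate 2 (0.42, adjusted exact p 0.039) or oculomotor 30 months replicate 2 (0.40, adjusted exact p 0.049).

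**Figure D3:**
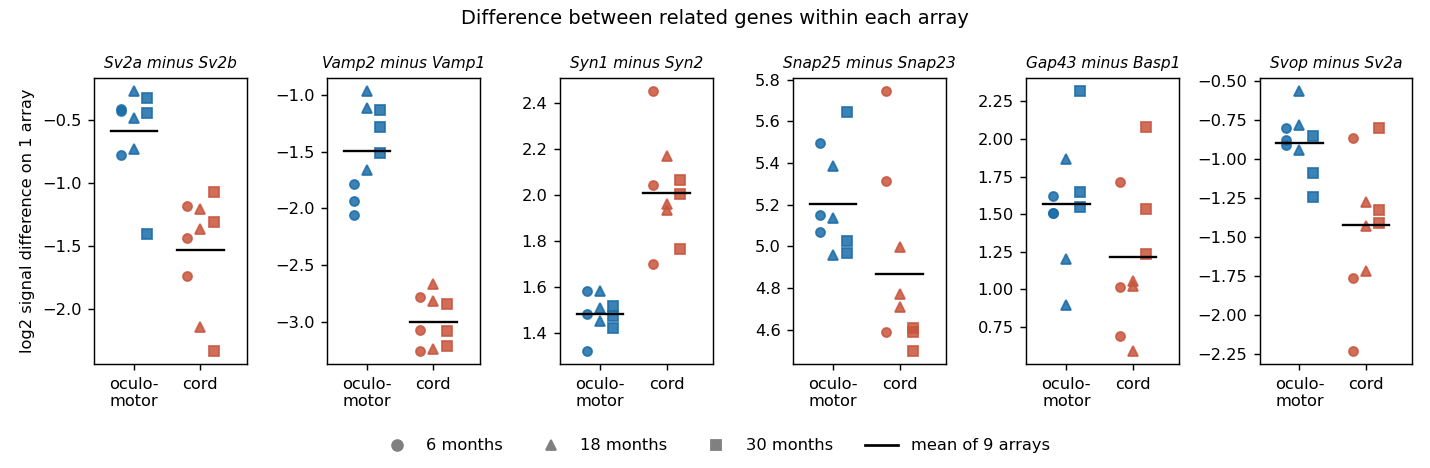
Log2 signal difference between 2 related genes on each array (vertical axes, each with its own range), in the oculomotor nucleus (blue) and cord (red), by age (symbol), with the mean of 9 arrays as a line. The tissues do not overlap for Vamp2 against Vamp1 or for Syn1 against Syn2, and they overlap in the other 4 pairs.

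The promoters of Svop, Vamp2, Sv2a and Syn1, each called higher in the oculomotor nucleus over the ages, are shown with short motifs that a search found. They are the 250 bases before the RefSeq transcription start in build GRCr8, read in the direction of the gene, and 7 of the 9 members were in the table. Snap25 and Gap43 were not in it. Capitals mark the motifs, which were the GC box (GGGCGG, or CCGCCC on the other strand), the cyclic AMP response element (TGACGTCA, the same on both strands) and the TATA box (TATAAA, or TTTATA on the other strand). Svop lies at chr12:48191299-48191548 on the plus strand, Vamp2 at chr10:54292539-54292788 on the plus strand, Sv2a at chr2:186430113-186430362 on the plus strand and Syn1 at chrX:3725495-3725744 on the plus strand.
Svop: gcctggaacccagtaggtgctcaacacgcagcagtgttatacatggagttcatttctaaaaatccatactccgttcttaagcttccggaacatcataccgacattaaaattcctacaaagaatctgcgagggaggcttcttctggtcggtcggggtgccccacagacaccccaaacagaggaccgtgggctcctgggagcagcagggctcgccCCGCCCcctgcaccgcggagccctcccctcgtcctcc
Vamp2: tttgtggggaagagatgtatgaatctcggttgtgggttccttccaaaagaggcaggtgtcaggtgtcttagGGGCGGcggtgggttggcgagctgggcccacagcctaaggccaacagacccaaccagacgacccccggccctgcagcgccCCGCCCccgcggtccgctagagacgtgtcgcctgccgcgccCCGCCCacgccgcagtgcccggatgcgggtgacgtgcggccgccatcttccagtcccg
Sv2a: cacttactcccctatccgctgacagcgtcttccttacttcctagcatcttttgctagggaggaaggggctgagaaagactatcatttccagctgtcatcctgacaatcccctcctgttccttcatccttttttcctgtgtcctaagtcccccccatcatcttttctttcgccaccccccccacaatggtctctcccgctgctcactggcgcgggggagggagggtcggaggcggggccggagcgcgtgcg
Syn1: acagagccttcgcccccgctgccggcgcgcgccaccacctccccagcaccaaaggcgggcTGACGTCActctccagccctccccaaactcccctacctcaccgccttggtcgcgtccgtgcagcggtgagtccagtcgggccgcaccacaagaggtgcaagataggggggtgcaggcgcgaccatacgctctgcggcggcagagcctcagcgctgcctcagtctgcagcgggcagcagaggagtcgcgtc

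Svop held 1 GC box and Vamp2 3, a motif present in 30.5% of the 33469 rat promoters of that length, and Sv2a and Syn1 held none. Syn1 held 1 cyclic AMP response element, found in 1.59% of all promoters. None of the 7 members held a TATA box, which 12.9% of all promoters did. Their share of G and C was 57.2% for Svop, 58% for Sv2a, 68% for Vamp2 and 69.6% for Syn1, against a median of 51.2% over all promoters. Of the members not printed, Syn2 held 3 GC boxes, Syt1 3 and Stx1a 4. Syn2 and, without the filter, Stx1a were also higher in the oculomotor nucleus, so the printed promoters are only a selection. A match describes these letters only, and binding of a factor was not measured.

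No member passed the test between ages in either tissue. In the oculomotor nucleus, limma called 0 of 7 members at 18 against 6 months, where 0% of all probe sets were called, 0 of 7 at 30 against 6 months, against 0.211%, and 0 of 7 at 30 against 18 months, against 0.0105%. In the cord the counts were 0 of 7 against 0.728% at 18 against 6 months, 0 of 7 against 0.221% at 30 against 6 months and 0 of 7 against 0.0105% at 30 against 18 months. Between the tissues, 0 of 7 members were called for a difference in the change from 6 to 18 months or from 6 to 30 months, and 0% of all probe sets in both. The lowest adjusted p of any member in these 8 comparisons was 0.391. At an unadjusted p under 0.05, 1 of 7 members was found in each of 3 comparisons, 18 against 6 months in the oculomotor nucleus, 30 against 6 months in the cord and the tissue difference in the change from 6 to 30 months, where 3.39%, 10.7% and 5.47% of all probe sets were. In the other 5 it was 0.

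Vamp2 in the oculomotor nucleus was 0.35 higher on the log2 scale at 18 than at 6 months (95% interval 0.03 to 0.66, unadjusted p 0.0328, adjusted p 1 in limma), with group means of 2602 ± 559 and 2026 ± 261 (SD, n = 3) that overlapped array by array. It was 0.20 without oculomotor 18 months replicate 2 and 0.52 without replicate 3 of that group. Svop in the cord was 0.61 higher at 30 than at 6 months (95% interval 0.08 to 1.14, adjusted p 0.391 in limma), with signals of 497.3, 388 and 241.7 against 285.6, 169.9 and 270.1, and it was 0.37 without cord 6 months replicate 2. The remaining value was the tissue difference in the Svop change from 6 to 30 months given above. Of the arrays that stand apart, cord 6 months replicate 1 had the highest Svop of its group and cord 30 months replicate 3 the lowest of its own. Without the 4 arrays the Svop difference in the cord was 1.04 with an adjusted p of 0.045 in limma, a comparison of 2 arrays with 2, and 1 member rather than 0 was called.

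In the oculomotor nucleus the arrays at 6 and 30 months did not overlap for 2 of the 7 members, Syn1 and Syn2, as they did not for 13.9% of all probe sets in either direction. All 3 arrays at 30 months lay below all 3 at 6 months for the representative probe set of both. The second Syn2 probe set did not overlap either. The second Syn1 probe set did, with 1145, 1065 and 1233 at 6 months against 1076, 1229 and 757.8 at 30 months. The log2 differences of the representative probe sets were -0.28 for Syn1 (95% interval -0.56 to 0.005, adjusted p 0.611) and -0.29 for Syn2 (-0.63 to 0.06, adjusted p 0.687) in limma. Oculomotor 30 months replicate 3, which stands apart, was the lowest array of its group for both, and without it the differences were -0.13 and -0.17 (adjusted p 0.908 in limma for both). The 95% intervals of the 30 against 6 month difference lay within -0.26 and 0.36 for Gap43 in both tissues, so a change as large as its tissue difference lies outside them.

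**Figure D4:**
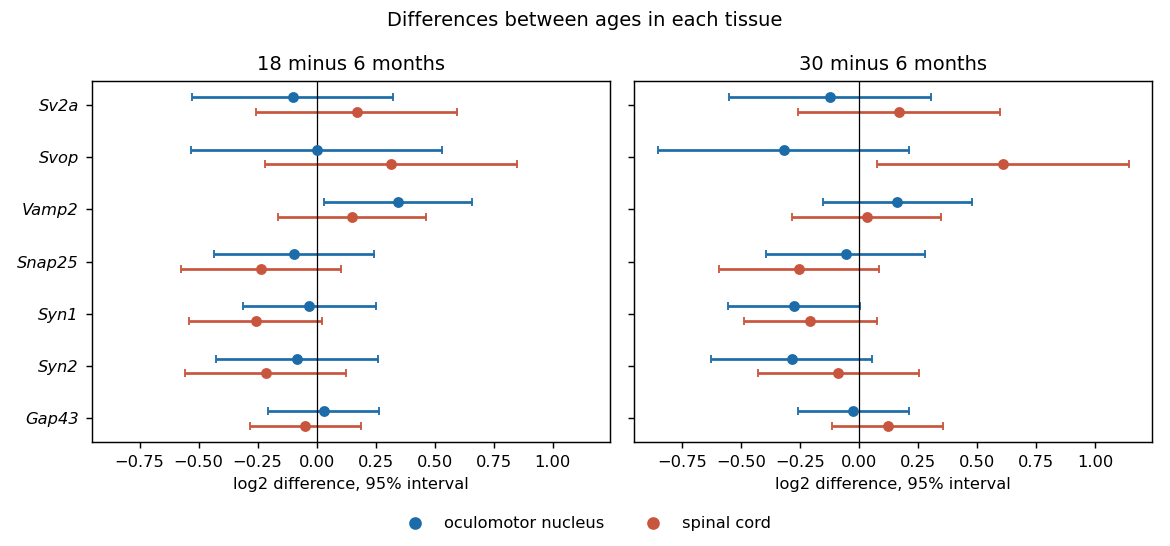
Log2 difference at 18 and at 30 months against 6 months (horizontal axes), with the 95% interval, for the 7 members above the filter in the oculomotor nucleus (blue) and cord (red). Intervals cross 0 except for Vamp2 in the oculomotor nucleus at 18 months and Svop in the cord at 30 months, which did not pass the adjusted test.

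The 4 arrays that stand apart differed from the rest of their groups in some members and not in others. Sv2a was lower on all 4, by -0.72 to -0.42 on the log2 scale against the mean of the other arrays of the group, and Syn1 was lower on all 4, by -0.43 to -0.10. Svop was lower on 3 of 4 (-0.86 to 0.42) and Syn2 on 3 of 4 (-0.61 to 0.14). Snap25 was higher on all 4, by 0.08 to 0.32, while Vamp2 and Gap43 were lower on 1 each. Without these arrays the same counts of members were called between the tissues over all ages, 6 of 7 higher.

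Other genes of the vesicle cycle and the growth cone also differed between the tissues, in both directions. Of 135 listed genes 120 had a probe set, 103 passed the filter, and 50 were called higher in the oculomotor nucleus and 20 lower, which is 48.5% and 19.4% against 23.6% and 23.6% of all probe sets. The median log2 difference was 0.21 over the list and 0.01 over all probe sets. Without the 4 arrays that stand apart 57 were higher and 21 lower, and without the 3 cord arrays highest in Acta1 48 were higher and 17 lower. In each of the 8 comparisons of ages and of changes, limma called 0 of the 103, and between 2 and 11 had an unadjusted p under 0.05, as did 2.14% to 10.7% of all probe sets.

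By role, the shares of a class stand against 23.6% of all probe sets called higher and 23.6% lower. The vesicle membrane proteins had 7 of 13 higher (53.8%) and 4 lower (30.8%). Syngr3, a synaptogyrin of neuronal vesicles, was 2.67-fold higher (log2 1.42, adjusted p 3.26e-12), with 2651 to 3394 on oculomotor arrays and 817.6 to 1279 on cord arrays. In the other direction, Sncg, gamma-synuclein, which is abundant in motor and sensory neurons, was 3.07-fold lower (log2 -1.62, adjusted p 9.49e-14), with a mean of 1055 ± 101 against 3234 ± 257 (SD, n = 9), and Syngr2, the more widely expressed synaptogyrin, was 2.02-fold lower (log2 -1.01, adjusted p 1.53e-07). Of the synaptotagmins 4 of 8 were higher (50%) and 2 lower (25%), Syt5 among the higher at 2.33-fold (log2 1.22, adjusted p 3.36e-10).

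The SNAREs and fusion factors other than the members had 6 of 18 higher (33.3%) and 6 lower (33.3%), with a median log2 difference of -0.11. Of all probe sets, 23.6% were called in each direction. Vamp3, cellubrevin, the vesicle SNARE of most cell types, was 1.4-fold lower (log2 -0.48, adjusted p 3.11e-07). Active zone and priming genes had 6 of 12 higher (50%) and 0 lower, led by Cadps2, a priming factor of dense-core vesicles, at 3.13-fold (log2 1.65, adjusted p 8.79e-12). The lack of a lower call there goes with 3 further genes at an unadjusted p under 0.05 in limma, all of them higher. Endocytosis and coat genes had 8 of 17 higher (47.1%) and 1 lower (5.88%). Genes of the growth cone and axon outgrowth had 11 of 24 higher (45.8%) and 6 lower (25%).

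The largest single differences of the list lay in transmitter loading. Of 11 genes for the vesicular proton pump and the transmitter transporters, 8 were higher (72.7%) and 1 lower (9.09%), against 23.6% of all probe sets in each direction. Slc18a2, which loads monoamines, was 7.12-fold higher (log2 2.83, adjusted p 1.04e-12), at 1214 ± 185 against 173.2 ± 45.5 (SD, n = 9). Slc18a3, which loads acetylcholine and lies in the same locus as Chat, was 4.28-fold lower (log2 -2.10, adjusted p 4.85e-10). Of the amino acid transporters, chosen after their values were seen, the vesicular glutamate transporter Slc17a7 was 5.76-fold higher (adjusted p 3.7e-07) with a wide range of 143.5 to 1264 on oculomotor arrays and 83 to 175.6 on cord arrays. Its relative Slc17a6 was 1.53-fold higher (adjusted p 7.69e-08), and Slc32a1, which loads GABA and glycine, gave 1.22-fold with an adjusted p of 0.0659, all in limma.

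**Figure D5:**
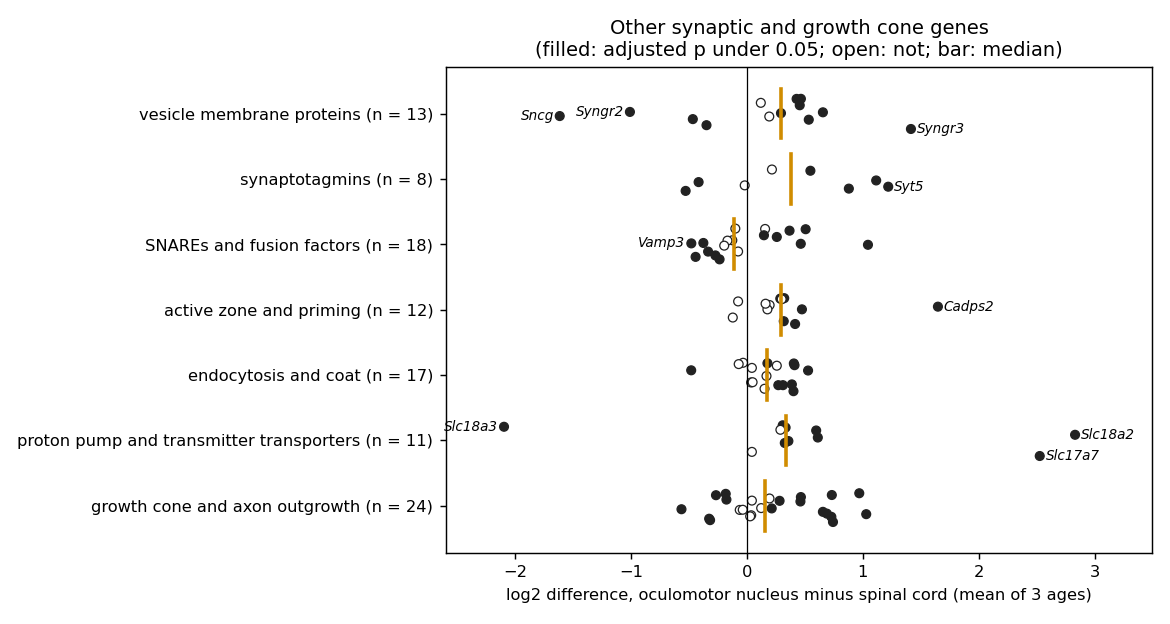
Log2 difference between oculomotor nucleus and cord averaged over ages (horizontal axis) of 103 other genes of the vesicle cycle and growth cone, by class, 1 point per gene, with a bar at the class median. Most medians lie right of 0, from 0.16 for growth cone genes to 0.38 for synaptotagmins, and that of the SNAREs and fusion factors lies at -0.11.

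Markers of other cell types moved with the tissue too. Their counts stand against 23.6% of all probe sets called higher in the oculomotor nucleus and 23.6% lower. All 11 microglia markers above the filter were lower in the oculomotor nucleus, with a summed signal of 8769 to 15016 against 12636 to 24040, as were 5 of 7 for oligodendrocytes (35077 to 44757 against 38308 to 55774), 5 of 8 for astrocytes with 1 higher (34199 to 44932 against 39095 to 53154) and 3 of 3 for nerve root and Schwann cells (2160 to 2533 against 4440 to 7005). Skeletal muscle markers were lower for 5 of 7 (13186 to 17375 against 12263 to 26967), with 6 of 19 at the floor on all oculomotor arrays, Myh2, Myh4, Myh7, Mb, Eno3 and Actn3. The largest part of the oculomotor sum was Aldoa, which was not called (8360 to 11800 against 7470 to 10000). Ckm (93.4 to 163 against 111 to 1230) and Tnnc2 (88.8 to 200 against 361 to 1250) were dim there, so the sum is a poor measure of muscle RNA. Both choroid plexus markers above the filter were higher, with sums of 507 to 4266 against 413 to 539. General neuronal markers were called higher for 5 of 13 and lower for 4, with a median log2 difference of 0.04 and summed signals of 44821 to 48367 against 45513 to 56192. Of the 6 oculomotor and midbrain markers above the filter, 4 were higher and 2 lower. The 4 were the monoamine genes Th (log2 4.66), Slc6a4 (4.07), Slc6a3 (3.34) and Ddc (2.21). The 2 were the cholinergic genes Chat (-1.45) and Slc18a3 (-2.10). The part of cell composition, monoamine neurons included, in the tissue differences of the members and of Slc18a2 was not tested.

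The genes whose pattern over the 18 arrays was most like the mean of the 7 members were found by Pearson correlation, as a description only, since the arrays share tissue groups. They were Pkia, an inhibitor of protein kinase A, with r = 0.987, Syngr3 with 0.982, Nsg2, a neuronal endosome protein, with 0.98, Slc1a3, a glutamate transporter of astrocytes, with 0.979 by the dimmer of its probe sets, and Nrsn1, neurensin, with 0.978. Each was more abundant in the oculomotor nucleus, from 2.14-fold for Nrsn1 to 2.67-fold for Syngr3, and none overlapped between the tissues. Both features follow largely from the choice, since the mean of the members itself differed between the tissues. Among the members themselves, which enter the mean, r was 0.936 to 0.962 for Svop, Gap43, Sv2a, Vamp2 and Syn2, 0.795 for Syn1 and -0.116 for Snap25.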

How the data were processed

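Transcripts were measured in 18 rat samples on Affymetrix RA230 arrays, 3 for each of 3 ages in the oculomotor nucleus and the spinal cord. Probe-level data were processed by the authors in Affymetrix Microarray Suite 5.0, per the series' design text and the submitters' processing notes (MAS5), and they deposited 1 linear intensity per probe set and array, without detection calls. A trimmed mean of 500.083 to 500.101 on every array was read from the values.

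Intensities were brought to a common 2% trimmed mean, raised to a floor at the pooled 20th percentile, 66.4, and converted to log2. The 57 control probe sets were dropped, and those with a mean log2 signal over the pooled 40th percentile, 7.459, were kept, 9482 in all. The platform annotation named 1 gene for 12789 probe sets and several for 312, which were not named, and 2822 were absent from it. Of several probe sets of a gene, the one with the highest mean represents it and the others are given beside it.

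With limma 3.58.1 under R 4.3.3, 1 model with 6 group means covered the 18 arrays (lmFit, then eBayes with a mean-variance trend, giving 12 residual and 18.8 total degrees of freedom), and 12 comparisons were drawn from it. Tests were 2-sided, with Benjamini-Hochberg adjustment over the 9482 probe sets, called at an adjusted p under 0.05. The fit was tested on simulated data. Folds are 2 to the power of the log2 difference, and levels are means of scaled signals with their SD. Group signals under the floor were compared at the floor. Precision is limited by 3 arrays per group.

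Named were all 9 members, 8 related genes where measured, and from the list of other vesicle and growth cone genes the 4 with the smallest p in each direction, and further the 5 genes most like the members. The members, the lists and the tests were chosen with earlier results of these data known. The alternatives included median centring, quantile normalization, unscaled values, a pseudocount of 64 or nothing in place of the floor, no filter, a filter at the 60th percentile, separate fits by tissue, a replicate block, muscle markers as a covariate, a block for the 4 arrays that stand apart, leaving out the 3 cord arrays highest in Acta1, array weights, no trend, averaged probe sets and each array left out. Leaving out the 4 arrays that stand apart was added after seeing the data. Promoter sequences came from RefSeq in build GRCr8.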

Additional observations from a re-analysis of the deposited data

How the results depend on the processing

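Of 2814 values for single members under the alternatives, 2802 stayed on their side of the threshold, 12 newly passed it, and no call was lost. No called value changed sign, but 107 uncalled ones did, 14 of them tissue differences, all of Snap25. Between the tissues, 6 to 7 members were called over all ages and at 18 months, and 5 to 6 at 6 and at 30 months, whichever array was left out or alternative used, and the seventh was Stx1a, which only the fit without a filter tests. Not every call was higher in the oculomotor nucleus. Snap25 was lower at 6 months (log2 -0.57) without the 3 cord arrays highest in Acta1, which leaves 1 cord array at that age. Between ages, 1 member, Svop in the cord at 30 against 6 months, was called without the arrays that stand apart (1.04, adjusted p 0.045), and 0 under every other alternative. Besides the single arrays named with the results, Syn1 at 6 months passed with median centring (0.38, adjusted p 0.0393), a block for the 4 arrays that stand apart (0.22, adjusted p 0.0462), array weights (0.32, adjusted p 0.0499) and averaged probe sets (0.42, adjusted p 0.0443), and Syn1 at 30 months with that block (0.27, adjusted p 0.0183) and without those arrays (0.27, adjusted p 0.0481). Among the pairs, Snap25 against Snap23 passed with quantile normalization (0.34, adjusted exact p 0.0111) and averaged probe sets (0.41, adjusted exact p 0.0095). Gap43 against Basp1 passed with the pseudocount (0.38, adjusted exact p 0.0465) and without the arrays that stand apart (0.47, adjusted exact p 0.01). Syn1 against Syn2 failed with averaged probe sets (-0.20, adjusted exact p 0.0594). Pair values also fell: Gap43 against Basp1 to 0.12 (adjusted exact p 0.192) with averaged probe sets, and Snap25 against Snap23 to 0.19 (adjusted exact p 0.344) without the 3 cord arrays highest in Acta1. Averaging with a dim second probe set lowered Vamp2 and Gap43 by over 1.5 times over all ages and at each age, with all 8 values still called. The second Gap43 probe set was at the floor on all 18 arrays, so averaging it in must lower the Gap43 difference. The causes of the other shifts were not tested. With each array left out in turn, Snap25 against Snap23 ranged from 0.23 to 0.43 and Gap43 against Basp1 from 0.26 to 0.45.

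The background counts between ages moved more. With 1 array left out, 4 to 69 probe sets were called at 30 against 6 months in the oculomotor nucleus (20 with all arrays), 15 to 100 at 18 against 6 months in the cord (69) and 0 to 43 at 30 against 6 months in the cord (21). At 6 months 2478 probe sets were called between the tissues, 1204 with muscle markers as a covariate and 1536 without the 3 cord arrays highest in Acta1.

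The labels state no pairing by replicate number. Of 45 pairs of groups' same-numbered samples, 8 had deviations that correlated above 0.1, with a median r of 0.03 and a highest of 0.50. Among the arrays that stand apart, those of oculomotor 30 months, cord 18 months and cord 30 months are all replicate 3. These values cannot decide whether the numbers pair samples. With the replicate block 6 members were called between the tissues over all ages and 0 between ages, and the calls of all probe sets at 30 against 6 months in the oculomotor nucleus went from 20 to 9. Signals near the floor limit Stx1a. With 3 arrays per group the 95% intervals between ages are wide, so a missing call does not show that a difference is absent. An interval that leaves out 0 can still fail the adjusted test, as for Svop in the cord at 30 against 6 months.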

Other observations

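General neuronal markers, which the vesicle genes might be set beside, moved both ways between the tissues. The neurofilament genes Nefl, Nefm and Nefh, which build the axon's core and are abundant in large motor axons, were lower in the oculomotor nucleus. Nefl had a log2 difference of -0.48 (5130 to 6040 against 6640 to 9880 on the cord arrays, adjusted p in limma 2.86e-05). Nefm gave -0.60 (adjusted p 1.45e-05) and Nefh -0.62 (adjusted p 5.99e-08). Ina, a further neurofilament gene, was higher by 0.22 (adjusted p in limma 0.00859). The RNA-binding proteins of neurons Celf4 and Elavl4 were higher, with log2 differences of 1.21 (2020 to 2590 against 847 to 1070, adjusted p 9.15e-12) and 1.04 (adjusted p 1.18e-06). Eno2, the neuronal enolase, was higher by 0.38 (adjusted p 5.33e-05) and Uchl1 by 0.27 (adjusted p 0.00464). Rbfox3, a nuclear protein of neurons, was lower, at -0.49 (adjusted p in limma 0.00124). Map2, a dendritic protein, gave 0.04 (adjusted p 0.672) and Tubb3, neuronal tubulin, 0.15 (adjusted p 0.199).

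The second probe set of Sv2b had the smallest unadjusted p between ages among the members and their related genes: it was lower by -0.53 on the log2 scale at 30 than at 6 months in the oculomotor nucleus (unadjusted p 0.000917, adjusted p 0.202 in limma), and its change differed between the tissues by -0.70 (unadjusted p 0.00179, adjusted p 0.665). Neither passed the test over all probe sets. The brighter Sv2b probe set was not lower at 30 months in the oculomotor nucleus, with 2670 ± 625 against 2507 ± 109 at 6 months (SD, n = 3).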
